A study of Mus musculus with 20 samples.

Results

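Serpina3n, a secreted serine protease inhibitor, and 8 other genes known from reactive astrocytes were followed in the arcuate nucleus (ARC) of mice given corticosterone (Cort). The other members are Gfap, Lcn2, Cp, Osmr, Steap4, Timp1, S1pr3 and Cd44. These 9 of the 22048 genes in the count tables were chosen by name, and they were selected on measured values, because Serpina3n was higher with Cort at 2 days. For this reason the 2 day values below are a description without a test, and tests of these genes are given at 4 weeks alone. Serpina3n was the 1 gene of the 9 whose vehicle and Cort samples did not overlap. At 2 days this is the value it was chosen on, and 3.23% of all genes tested had every kept Cort library above every vehicle library. At 4 weeks, when it also did not overlap, this share was 3.09%. Gfap, the defining member of the group, overlapped between treatments in both. The name reactive astrocyte genes is therefore used below for what the genes are known for, and not for a state that was measured.

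Male C57BL6/J mice, given as 10 weeks old, drank either 75 µg/ml Cort dissolved in 1% ethanol or 1% ethanol alone (vehicle) for 2 days or for 4 weeks. The 4 week mice were fasted for 16 h and then refed for 24 h before the brains were taken, with their drinking water unchanged, and the 2 day mice were not fasted. Every group therefore received ethanol, and none drank plain water. The whole ARC was cut out by laser from cresyl violet stained sections, its RNA was amplified, and 5 vehicle and 5 Cort libraries were sequenced per dataset. The study left out 2 vehicle libraries and 1 Cort library of each dataset as outliers, so that comparisons rest on 3 vehicle and 4 Cort libraries unless all 10 are named. The 2 datasets also differ in section thickness, slides, laser system and sequencer, so time and these conditions cannot be told apart, and no test was made between them.

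Libraries held 2487063 to 5748223 counts at 2 days and 1065776 to 5196364 at 4 weeks. A count of 3, taken as the floor of detection, was worth between 0.522 and 1.21 CPM, the counts scaled to a common library total, at 2 days and between 0.577 and 2.81 CPM at 4 weeks. The libraries are named by the codes C01 to C10 of each dataset. In the 2 day table of normalized values, 5 of the 7 column headers carry the counts of a library with another code, and the raw count headers were used here. If those headers were right instead, some vehicle and Cort libraries would change places and the log2 fold change of Serpina3n at 2 days would be -0.67 ± 0.33 (SE). The log2 fold change of Fam107a, which glucocorticoids are known to induce, was 0.98 with the raw count headers and would be -0.07 with the others. The study itself reported Fam107a as upregulated by Cort at 2 days.

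Astrocytes respond to injury, infection and disease by changing their shape and their transcripts. The intermediate filament protein Gfap accumulates, and a shared set of reactive genes rises, which includes Serpina3n, Lcn2, Cp, Osmr, Steap4, Timp1, S1pr3 and Cd44. Cytokines acting through gp130 receptors and STAT3 drive much of this response. Glucocorticoids act through a nuclear receptor that binds pairs of a short half-site in DNA, and they are known both to damp inflammation and to induce acute-phase proteins such as the serpins. Serpina3n is also found in other brain cells, neurons among them, so its level in a whole nucleus does not mark one cell type. A bulk sample also cannot tell fewer cells of a type from less RNA per cell.

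Serpina3n (ENSMUSG00000021091) lies on chr12:104406729-104414329 of GRCm38, on the plus strand, with 1 annotated transcript of 2064 exon bases in GENCODE M21. It belongs to a cluster of related genes, and reads of 50 bases cannot always tell the members apart. Of its stretches of 50 bases, 6.9% occur in another gene's transcripts as well. The longest coding stretches that it shares with Serpina3g (100 bases, chr12:104412408-104413434) and with Serpina3m (65 bases, chr12:104412479-104413470), both running from exon 4 into exon 5 across an intron on the plus strand, are shown because counts of these genes could be exchanged there. A qRT-PCR primer of the study is shown with them, because it marks a 20-base site that matched exon 4 of Serpina3n and no other Serpina3 gene. The capitals mark this matched site, at chr12:104412399-104412418, read on the minus strand.
Shared with Serpina3g: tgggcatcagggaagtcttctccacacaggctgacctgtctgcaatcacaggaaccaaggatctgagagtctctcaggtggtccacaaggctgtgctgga
Shared with Serpina3m: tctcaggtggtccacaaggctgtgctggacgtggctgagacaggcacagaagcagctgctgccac
Reverse primer: CCTGATGCCCAGCTTTGAAA
Both stretches start in exon 4 and hold the same letters where they overlap. The primer's partner did not match the annotated transcript exactly and is not printed.

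The 250 bases before the start site, from RefSeq on GRCm38.p6, matched for 9 of 9 genes at 10 start sites. They were searched on both strands for the glucocorticoid receptor half-site AGAACA, a STAT site TTCNNNGAA and a TATA box TATAAA. The half-site was present before Serpina3n and before 1 of the 2 start sites of Cp, against 16.1% of all 32851 windows. Both windows are shown, with the half-site in capitals, since Serpina3n is the gene whose groups did not overlap and Cp is the other gene holding those letters.
Serpina3n, chr12:104406458-104406707, plus strand: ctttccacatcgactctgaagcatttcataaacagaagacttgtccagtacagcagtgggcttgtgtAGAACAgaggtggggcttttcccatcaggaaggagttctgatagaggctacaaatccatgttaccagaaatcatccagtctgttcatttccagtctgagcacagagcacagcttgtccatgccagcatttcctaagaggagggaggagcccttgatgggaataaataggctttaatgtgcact
Cp, chr3:19956804-19957053, plus strand: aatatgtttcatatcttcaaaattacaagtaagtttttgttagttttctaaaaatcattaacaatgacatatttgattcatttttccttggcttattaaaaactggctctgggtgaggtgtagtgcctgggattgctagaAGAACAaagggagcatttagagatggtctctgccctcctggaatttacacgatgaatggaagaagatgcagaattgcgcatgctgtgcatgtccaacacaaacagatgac
In Serpina3n the half-site spans positions -183 to -178 from the start site, and in Cp positions -110 to -105. The STAT site was found before Steap4, against 7.02% of all windows, and the TATA box before Cp and Steap4, against 12.4%. The other 6 genes held none of the 3 motifs in this window. These matches are letters in a sequence and were not tested as sites.

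Serpina3n was the most abundant of the 9 genes per length. In the vehicle libraries at 2 days its level was 97.6 CPM per kb of exon, with a range of 86.5 to 104, which was above 97.2% of the genes tested. At 4 weeks it was 139 CPM per kb, with a range of 114 to 180. Gfap came next at 14.6 CPM per kb at 2 days and 16.7 at 4 weeks, and its highest vehicle library, at 25.0, lay below the lowest of Serpina3n. S1pr3, Cd44 and Timp1 followed at 2 days with 2.92, 2.07 and 1.13 CPM per kb, and their ranges overlapped. Cp at 0.549, Osmr at 0.167 and Steap4 at 0.136 CPM per kb were lower still, and Lcn2 was at 0 in these 3 libraries. At 4 weeks Cd44 came after Gfap with 8.45 CPM per kb and the order below it was S1pr3, Timp1, Osmr, Cp, Lcn2 and Steap4. Lcn2, Steap4 and Timp1 did not pass the filter on low counts in either dataset, so 6 of the 9 genes were fitted in each.

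At 2 days Serpina3n was higher in every Cort library than in every vehicle library. The kept vehicle libraries C02, C04 and C05 held 214, 178 and 212 CPM, and C07 and C09, which the study left out, held 180.0 and 141 CPM. The kept Cort libraries C01, C03, C06 and C10 held 733, 561, 282 and 524 CPM, and C08, which was left out, held 744 CPM. The vehicle libraries were tightly grouped and the Cort libraries were spread, with C06 nearest to vehicle. The mean was 201 ± 20.01 CPM (SD, n = 3) in vehicle libraries. In Cort libraries it was 525 ± 186 CPM (SD, n = 4), which is 2.605-fold, and the log2 fold change was 1.38 ± 0.22 (SE). Over all 10 libraries it was 1.62 ± 0.21 (SE). This is the contrast that led to the choice of the gene, so the share of genes tested in which every Cort library exceeded every vehicle library is given for reading only. It was 3.23% in the 7 kept libraries and 0.376% in all 10.

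**Figure D1:**
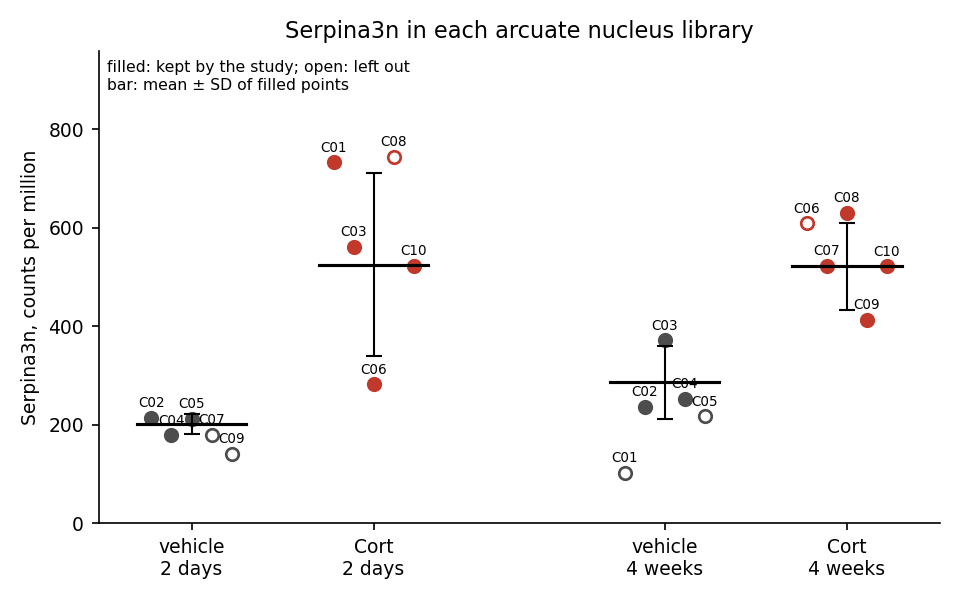
Serpina3n in CPM (vertical axis) in each library of the 4 groups. Filled circles are libraries that the study kept, open circles those left out, and bars show the mean ± SD of the filled circles. In both datasets every Cort library lies above every vehicle library, with the nearest values being vehicle C02 at 214 and Cort C06 at 282 CPM at 2 days and vehicle C03 at 372 and Cort C09 at 413 CPM at 4 weeks.

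At 4 weeks, a dataset that the rule of choice did not use, Serpina3n was again higher in every Cort library. Vehicle libraries C02, C03 and C04 held 236, 372 and 252 CPM, and the left-out C01 and C05 held 101 and 217 CPM. Cort libraries C07, C08, C09 and C10 held 522, 631, 413 and 522 CPM, and the left-out C06 held 609 CPM. The groups did not overlap with the 7 kept libraries or with all 10, although C03 and C09 lay close together. Vehicle libraries averaged 287 ± 74.1 CPM (SD, n = 3). Cort libraries averaged 522 ± 88.9 CPM (SD, n = 4), which is 1.82-fold. The log2 fold change was 0.87 ± 0.25 (SE), with an edgeR quasi-likelihood P of 0.0036 and a Padj of 0.889 over 11211 genes. Serpina3n thus ranked 42nd by P and did not pass the threshold of Padj below 0.1. With all 10 libraries the log2 fold change was 1.19 ± 0.30 (SE) with an edgeR Padj of 0.762, and the gene ranked 10th.

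The exact two-sided permutation test of the CPM means at 4 weeks gave P = 0.057 for the 7 kept libraries, which is the smallest value that 3 against 4 allows. The exact test gave P = 0.0079 for all 10, again the smallest possible. Non-overlap in this direction was found in 3.09% of genes tested in the 7 libraries and in 0.51% in all 10. Of the 11211 genes tested at 4 weeks, 0.0446% had a Padj below 0.1 and 1.03% had P below 0.01, so that Serpina3n belonged to the second group and not to the first. By DESeq2 its Padj was 0.147, and over the alternatives it ran from 0.147 to 1.00. The log2 fold change without any single library lay between 0.76 and 1.11.

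The markers of homeostatic astrocytes were compared in the same libraries. All 17 listed markers, among them Aqp4, Slc1a2, Slc1a3, Gja1 and Glul, passed the filter in both datasets. Their summed level at 2 days was 9054 to 10050 CPM in the kept vehicle libraries and 8936 to 11740 CPM in the Cort libraries, so that the groups overlapped. Per 1000 CPM of these markers, Serpina3n at 2 days was 19.7 to 21.4 CPM with vehicle and 24.0 to 72.2 CPM with Cort. The markers are not free of treatment. Glul averaged 1123 CPM in the kept vehicle and 1636 CPM in the kept Cort libraries at 2 days. The study counts it among genes known to respond to glucocorticoids, so the ratio does not correct for astrocyte content alone. At 4 weeks the summed markers were higher in the Cort libraries, at 6599 to 8152 CPM against 5790 to 6391 CPM, although they overlapped over all 10. For single genes, 3.09% of those tested were separated in this direction in the kept libraries at 4 weeks. Abundant genes weigh most in the sum of markers, and Slc1a2 alone averaged 2027 CPM in the kept vehicle and 2777 CPM in the kept Cort libraries. Of the 17 markers 10 were higher with Cort at 4 weeks, or 58.8% against 51.9% of all genes tested. Per 1000 CPM of markers, Serpina3n at 4 weeks was then 39.4 to 59.5 CPM in the kept vehicle libraries and 50.7 to 91.0 CPM in the Cort libraries, which overlapped. The exact two-sided permutation test of this ratio gave P = 0.11 for the 7 libraries and P = 0.016 for all 10, and the means differed 1.53-fold and 1.87-fold. The part of astrocyte content in the 4 week difference was not tested further.

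Gfap, the main intermediate filament of astrocytes, overlapped between treatments in both datasets. At 2 days vehicle libraries C02, C04 and C05 held 46.8, 67.7 and 70.2 CPM, and Cort libraries C01, C03, C06 and C10 held 69.6, 78.8, 29.5 and 87.9 CPM. The left-out vehicle C07 and C09 held 58.4 and 45.7 CPM and the left-out Cort C08 held 63.1 CPM. Cort C06 was the lowest of all 10, and the log2 fold change was 0.10 ± 0.31 (SE). At 4 weeks the libraries differed widely within each treatment. Vehicle C02, C03 and C04 held 19.6, 86.5 and 105.5 CPM, and the left-out C01 and C05 held 3.755 and 13.9 CPM. Cort C07, C08, C09 and C10 held 201, 89.8, 91.0 and 16.5 CPM, and the left-out C06 held 30.9 CPM. The spread within each treatment was larger than the difference between them. The log2 fold change of 0.51 ± 0.69 (SE) had an edgeR Padj of 0.990, and it turned to -0.10 without C07.

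Cd44, a cell surface receptor for hyaluronan, overlapped between treatments in both datasets. At 2 days the kept vehicle libraries held 6.69, 24.7 and 10.6 CPM and the kept Cort libraries 13.2, 24.0, 8.59 and 34.5 CPM, with a log2 fold change of 0.49 ± 0.54 (SE). At 4 weeks vehicle C02, C03 and C04 held 41.8, 56.2 and 73.8 CPM, and Cort C07, C08, C09 and C10 held 281, 59.4, 38.2 and 123 CPM. Among these 7, Cort C07 and C10 stood above all others and C09 below them, so the groups overlapped. The left-out libraries went the other way, with 94.8 and 104 CPM in vehicle C01 and C05 and 8.92 CPM in Cort C06. The log2 fold change was 1.15 ± 0.60 (SE), with an edgeR Padj of 0.990, and with all 10 libraries it was 0.47 ± 0.64 (SE). Without single libraries it ranged from 0.37 to 1.45.

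S1pr3, a receptor for sphingosine 1-phosphate, did not separate the treatments either. At 2 days the kept vehicle libraries held 7.68, 19.1 and 12.3 CPM and the kept Cort libraries 6.34, 11.98, 21.5 and 24.1 CPM. This gave a log2 fold change of 0.28 ± 0.54 (SE), and it was 1.01 ± 0.51 (SE) with all 10, where the left-out Cort C08 held the highest value, 48.7 CPM. At 4 weeks it was 0.01 ± 1.08 (SE) with edgeR's Padj = 1.00, and the groups overlapped almost fully. Vehicle C02, C03 and C04 then held 10.1, 10.9 and 38.0 CPM, and the left-out C01 and C05 held 0.939 and 24.1 CPM. Cort C07, C08, C09 and C10 held 45.7, 14.6, 17.6 and 0.914 CPM, and the left-out C06 held 5.73 CPM.

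Cp encodes ceruloplasmin, a copper-carrying ferroxidase. Its fold change at 4 weeks varied from 0.45 to 5.74 on the log2 scale over the 9 alternatives in which it was fitted. Without Cort C07, C08 or C09, or with 10 counts required in every library, it did not pass the filter and was not fitted. At 2 days the kept vehicle libraries held 9.67, 3.44 and 2.65 CPM and the kept Cort libraries 6.51, 5.82, 13.2 and 8.83 CPM, with a log2 fold change of 0.72 ± 0.71 (SE). The left-out vehicle C07 and C09 lay at both ends, with 16.5 and 0 CPM, and the left-out Cort C08 held 16.0 CPM. At 4 weeks vehicle C02, C03 and C04 held 0.337, 0.404 and 3.13 CPM, from 1, 1 and 7 counts. Cort C07, C08, C09 and C10 held 39.5, 24.9, 21.2 and 0.610 CPM, from 196, 106, 41 and 2 counts. Of the 4 Cort libraries 3 were thus above every kept vehicle library and C10 was within them. The fitted log2 fold change was 4.05 ± 1.52 (SE), with an edgeR Padj of 0.990, and with 2 of 3 vehicle libraries under the floor it is not a bound. The left-out vehicle C05 held 62.1 CPM, the highest value of all, the left-out vehicle C01 held 0.939 CPM and Cort C06 5.415 CPM, and with all 10 libraries the log2 fold change was 0.45 ± 1.32 (SE). Of the exon bases of Cp, 1.13% overlap Hps3.

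Osmr encodes the oncostatin M receptor, which pairs with gp130. At 2 days the kept vehicle libraries held 2.48, 2.15 and 1.43 CPM and the kept Cort libraries 1.37, 1.37, 5.90 and 2.41 CPM. At 4 weeks vehicle C02, C03 and C04 held 6.07, 4.04 and 13.0 CPM, and Cort C07, C08, C09 and C10 held 0.201, 0.940, 0 and 7.31 CPM. Of the 4 Cort libraries 3 lay below every kept vehicle library and C10 among them. The left-out vehicle C01 held 13.1 CPM, and vehicle C05 and Cort C06 were at 0. Fitted log2 fold changes were 0.47 ± 0.97 (SE) at 2 days and -1.83 ± 1.60 (SE) at 4 weeks, the latter with edgeR's Padj = 0.990.

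Lcn2, Steap4 and Timp1 were at the edge of detection. Lcn2, an iron-sequestering lipocalin, had at most 17 counts in any library, in the left-out Cort C08 at 2 days, and at most 9 at 4 weeks, in Cort C08. It was at 0 in 5 of 10 libraries at 2 days and in 8 of 10 at 4 weeks. At 2 days vehicle C09 held 1 count of Lcn2 and the other vehicle libraries 0. Cort C01, C03, C08 and C10 held 1, 2, 17 and 3 counts, and Cort C06 held 0. Steap4, a metalloreductase, reached 20 counts in the left-out vehicle C09 at 2 days and was at 0 in all 10 libraries at 4 weeks. Timp1, an inhibitor of metalloproteinases, had at most 11 counts, in vehicle C09 at 2 days, and 8 in vehicle C01 at 4 weeks. At this depth Lcn2, Steap4 and Timp1 did not pass the filter, and no treatment difference was fitted for them.

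**Figure D2:**
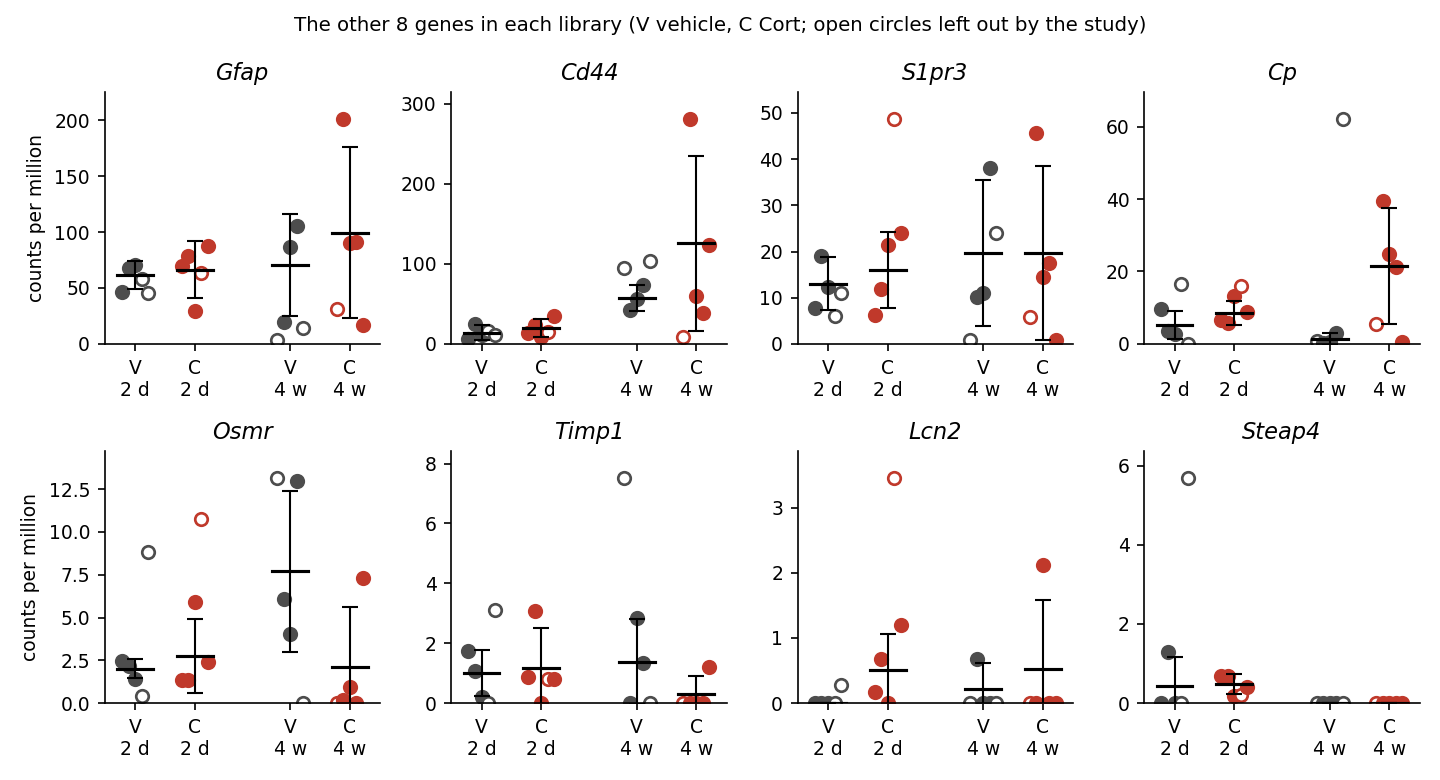
CPM (vertical axes, each panel with its own range from 0) of the 8 other genes in each library, by treatment (V vehicle, C Cort) and time. Open circles were left out by the study and bars show mean ± SD of the kept libraries. In every panel the 2 treatments overlap, and single libraries such as Cort C07 at 4 weeks for Gfap (201 CPM) and Cd44 (281 CPM) stand high.

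Of the 6 genes that were fitted, 6 had a log2 fold change above 0 at 2 days and 5 at 4 weeks, with medians of 0.48 and 0.69. Of all genes tested 52.1% and 51.9% were above 0, with medians of 0.02 and 0.04. The 2 day count includes Serpina3n, which was chosen for being higher there, and the 4 week count includes S1pr3 at 0.01. The 4 week count and median also include Cp at 4.05, whose kept vehicle libraries held 1, 1 and 7 counts. Cp passed the filter there through its Cort libraries and was not fitted without C07, C08 or C09, so its sign adds nothing to the count. None of the 6 passed Padj below 0.1 at 4 weeks. The SE of the difference was 0.25 for Serpina3n at 4 weeks and 0.60 to 1.60 for the other genes, so a difference as large as that of Serpina3n was within about 1.5 SE for each of them.

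**Figure D3:**
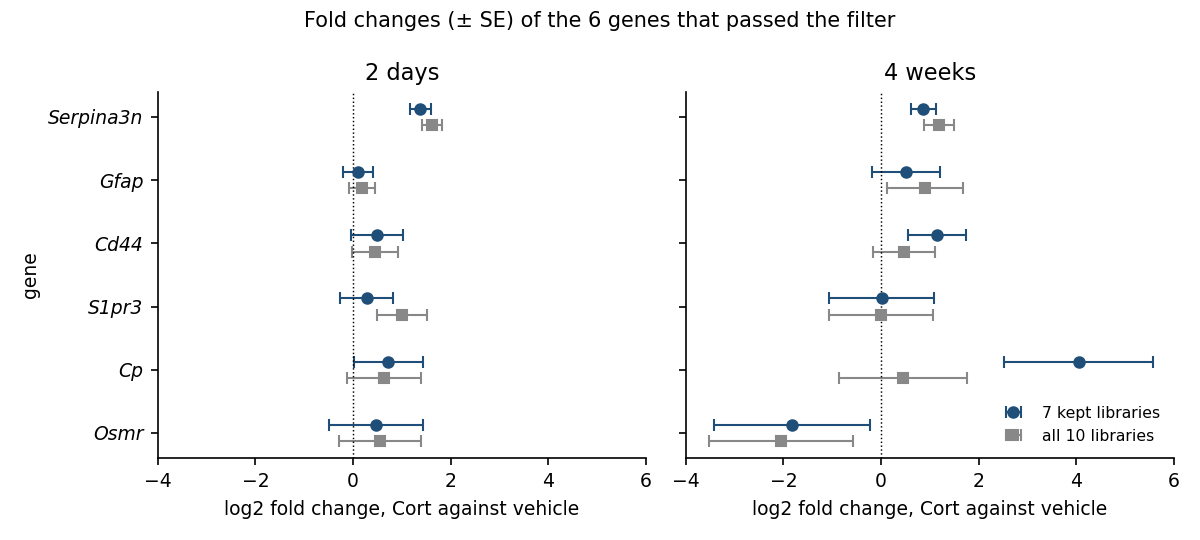
Log2 fold change of Cort against vehicle (horizontal axis) with its standard error for the 6 genes that passed the filter, at 2 days and at 4 weeks. Circles use the 7 kept libraries and squares all 10. Serpina3n lies above 0 with a short bar in both, at 1.38 and 0.87 with the kept libraries, and Cp at 4 weeks moves from 4.05 to 0.45.

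The rest of the Serpina3 cluster was far less abundant. Of 10 listed genes 9 are in the tables, and Serpina3h was not analysed here. Serpina3n took 95.2% to 98.3% of all Serpina3 counts in the libraries at 2 days and at least 91.5% at 4 weeks. The summed level of the 9 other genes was 4.51 to 4.71 CPM in the kept vehicle libraries and 5.19 to 21.4 CPM in the kept Cort libraries at 2 days, and the groups overlapped over all 10. At 4 weeks it was 4.05 to 8.09 CPM with vehicle and 15.5 to 48.3 CPM with Cort, and these groups did not overlap over all 10 libraries. Of single genes tested, 3.23% had every kept Cort library above every kept vehicle library at 2 days. At 4 weeks this share was 0.51% over all 10 libraries. Serpina3m was the 1 gene of the cluster that passed the filter. Its log2 fold change was 1.24 ± 0.81 (SE, edgeR Padj = 0.895) at 2 days and 0.82 ± 1.29 (SE, edgeR Padj = 0.990) at 4 weeks. At 4 weeks Serpina3g reached 199 counts and Serpina3c 35 counts in single Cort libraries, with at most 1.21 and 0.675 CPM in any vehicle library. Counts of these genes may partly be reads of the stretches shown above, and this was not tested.

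Other reactive astrocyte genes were compared by fixed lists. Of 4 further pan-reactive genes only Vim, an intermediate filament, was abundant enough to test, with a log2 fold change of 0.08 ± 0.38 (SE, edgeR Padj = 0.987) at 2 days and -1.26 ± 0.61 (SE, edgeR Padj = 0.990) at 4 weeks. Aspg, Cxcl10 and Hspb1 did not pass the filter. In the set linked to neuroinflammation 9 of 12 genes were tested at 2 days, none with Padj below 0.1. P was below 0.01 for 2 of them, both higher with Cort, against 1.49% of all genes tested. They were Fbln5, an elastic fibre protein, at a log2 fold change of 2.58 ± 0.65 (SE, edgeR Padj = 0.443), and Fkbp5, a cochaperone that glucocorticoids induce, at 1.57 ± 0.35 (SE, edgeR Padj = 0.244). With all 10 libraries Fkbp5 was at 1.86 ± 0.34 (SE) and passed the threshold, with an edgeR Padj of 0.091. The summed level of the set at 2 days was 189 to 239 CPM with vehicle and 278 to 349 CPM with Cort, and the groups did not overlap over all 10 libraries either. Fkbp5 is on this list and also on that of glucocorticoid-induced genes. For single genes at 2 days, 3.23% of those tested were separated in this direction in the kept libraries and 0.376% over all 10. At 4 weeks 8 genes of the set were tested, its sums overlapped and no gene had P below 0.01, with the smallest P for Amigo2, an adhesion molecule, at -0.88 ± 0.41 (SE, edgeR Padj = 0.990). The set linked to ischaemia was mostly undetected, with 3 of 12 genes tested at 2 days and 2 at 4 weeks, and none had P below 0.01. S100a10 had the smallest P of them at 2 days, at -0.75 ± 0.31 (SE, edgeR Padj = 0.766), and Tm4sf1 at 4 weeks, at 1.62 ± 2.00 (SE, edgeR Padj = 0.990).

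Among the genes upstream and downstream of the members that could be tested, few differed. In gp130 cytokine signalling 8 of 14 genes were tested at 2 days and 7 at 4 weeks, none with P below 0.01, and the medians were -0.04 and -0.03. Osm, the ligand of Osmr, and Il6 were at 0 in all 20 libraries. Il6st, which encodes gp130, had the smallest P in both, at -0.21 ± 0.15 (SE, edgeR Padj = 0.922) and -0.56 ± 0.36 (SE, edgeR Padj = 0.990). Stat3 itself was at 0.09 and -0.06. Of the proteases that Serpina3n or its relatives inhibit and the receptors of Lcn2, 2 of 7 were tested in each dataset. The 5 proteases were at 0 in all 10 libraries at 2 days, so no target of Serpina3n was tested there. At 4 weeks 4 of the 7 genes were at 0 in all 10 libraries. The smallest P was that of Lrp2 at 2 days (-1.69 ± 1.13, SE, edgeR Padj = 0.899) and of Slc22a17 at 4 weeks (-0.20 ± 0.30, SE, edgeR Padj = 0.990), both of which take up Lcn2.

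For the partners of Timp1, 14 of 16 inhibitors and metalloproteinases were tested at 2 days and 12 at 4 weeks. Timp4 had the smallest P at 2 days, at 0.87 ± 0.32 (SE, edgeR Padj = 0.690). Mmp24 had the smallest at 4 weeks, at 3.70 ± 1.11 (SE, edgeR Padj = 0.897), and it was the 1 gene of the list with P below 0.01 there. Its kept vehicle libraries lay near the floor, at 0.447 to 4.72 CPM, against 18.1 to 55.2 CPM in the kept Cort libraries. With all 10 libraries Mmp24 was at 1.90 ± 1.21 (SE), with P above 0.01. In iron and copper handling, where Cp, Lcn2 and Steap4 belong, 13 of 15 genes were tested at 2 days and 12 at 4 weeks. Fth1, the ferritin heavy chain, was 0.43 ± 0.13 (SE, edgeR Padj = 0.509), with P below 0.01, at 2 days, and Slc11a2, an iron importer, 1.39 ± 0.69 (SE, edgeR Padj = 0.990) at 4 weeks. With all 10 libraries Fth1 was at 0.13 ± 0.21 (SE), with P above 0.01. The medians of the list were 0.10 and -0.61. Neither the sphingosine 1-phosphate pathway nor the list of Cd44 ligands and hyaluronan genes held a gene with P below 0.01 in the kept libraries. The smallest P values were those of S1pr1 (-0.32 ± 0.26, SE, edgeR Padj = 0.932) and Spp1 (2.24 ± 0.89, SE, edgeR Padj = 0.754) at 2 days, and of Sphk2 (2.18 ± 1.17, SE, edgeR Padj = 0.990) and Hyal2 (3.37 ± 1.3, SE, edgeR Padj = 0.990) at 4 weeks. With all 10 libraries Spp1 at 2 days was at 2.21 ± 0.72 (SE, edgeR Padj = 0.847), with P below 0.01. Spp1 and Hyal2 were also near the floor with vehicle. Spp1 at 2 days was 0.61 to 2.58 CPM in kept vehicle and 2.74 to 10.6 CPM in kept Cort libraries. Hyal2 at 4 weeks was 0.447 to 8.43 CPM in kept vehicle and 1.22 to 87.4 CPM in kept Cort libraries.

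Among intermediate filaments of astrocytes besides Gfap, 4 of 5 genes were tested in each dataset and none had P below 0.01. The smallest P was that of Nes at 2 days (-0.40 ± 0.40, SE, edgeR Padj = 0.946) and of Vim at 4 weeks. Of 14 acute-phase genes 4 were tested in each dataset, none with P below 0.01. Il1r1, the interleukin 1 receptor, was at -2.30 ± 0.90 (SE, edgeR Padj = 0.745) at 2 days, and A2m, a broad protease inhibitor, at 2.06 ± 1.13 (SE, edgeR Padj = 0.990) at 4 weeks.

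Among these pathway lists and in the kept libraries, genes with Padj below 0.1 were found in those of homeostatic astrocyte markers and glucocorticoid-induced genes. In the whole 2 day dataset 8 of 12309 genes passed, or 0.065%. Glul, the glutamine synthetase of astrocytes and a gene that the study counts as known to be glucocorticoid-regulated, rose at 2 days. Its vehicle libraries averaged 1123 ± 93.3 CPM (SD, n = 3) and its Cort libraries 1636 ± 94.3 CPM (SD, n = 4), with a log2 fold change of 0.54 ± 0.10 (SE, edgeR Padj = 0.042). Its edgeR Padj was 0.744 with all 10 libraries, and it was above 0.1, at up to 0.33, when C01, C02, C03, C04, C05 or C10 was left out. The other 16 homeostatic markers did not pass, and the median of the 17 was 0.05 at 2 days and 0.20 at 4 weeks, when Slc1a2, the main glutamate transporter, had the smallest P (0.46 ± 0.15, SE, edgeR Padj = 0.926). The P of Slc1a2 was below 0.01 in the kept libraries and above it with all 10. Fam107a, an actin-binding protein that glucocorticoids induce, rose in both datasets. At 2 days its vehicle libraries averaged 546 ± 90.1 CPM (SD, n = 3) and its Cort libraries 1075 ± 172 CPM (SD, n = 4). This gave a log2 fold change of 0.98 ± 0.14 (SE, edgeR Padj = 0.0048). At 4 weeks the averages were 266 ± 84.5 and 717 ± 89.2 CPM, a log2 fold change of 1.44 ± 0.25 (SE, edgeR Padj = 0.097). The edgeR Padj at 2 days was 0.264 with all 10 libraries and 0.132 without C02. At 4 weeks it was 0.417 to 0.725 when C03, C04, C08, C09 or C10 was left out. Of the 17 glucocorticoid-induced genes 5 had P below 0.01 at 2 days, all of them higher with Cort, and 2 of 16 tested at 4 weeks, against 1.49% and 1.03% of all genes tested. The medians of this list were 0.63 and 0.86, and 15 and 13 of its genes were higher with Cort, against 52.1% and 51.9% of all genes tested. Fkbp5, which was higher at 2 days, was at -0.22 ± 0.88 (SE, edgeR Padj = 0.995) at 4 weeks.

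**Figure D4:**
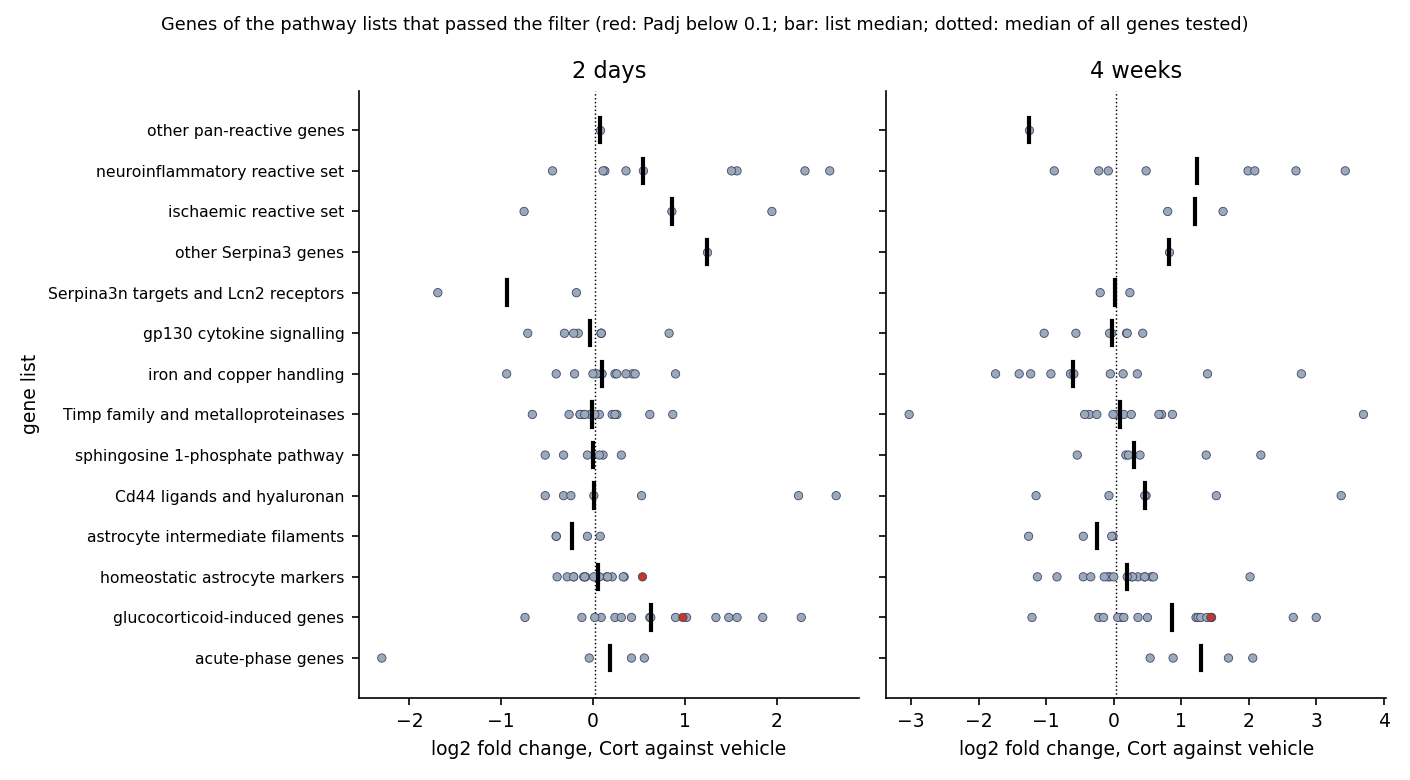
Log2 fold change of Cort against vehicle (horizontal axis) of every gene of the pathway lists that passed the filter in the kept libraries, by list, at 2 days and 4 weeks, with the list median as a bar and the median of all genes tested as a dotted line. Red points have Padj below 0.1. These are Glul and Fam107a at 2 days and Fam107a at 4 weeks, and the medians run from -0.94 to 1.24 at 2 days and from -1.26 to 1.29 at 4 weeks.

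Markers of other cells were read in the same libraries, since Serpina3n is not made by astrocytes alone. With the kept libraries at 2 days, the summed markers of microglia (359 to 432 CPM with vehicle, 463 to 540 CPM with Cort), oligodendrocytes (380 to 487 and 488 to 662 CPM) and arcuate neurons (1282 to 1719 and 1859 to 2453 CPM) did not overlap. Over all 10 libraries all 3 overlapped. For single genes, 3.23% of those tested had every kept Cort library above every kept vehicle library at 2 days. Single markers with Padj below 0.1 in the kept libraries at 2 days were 1 of 9 oligodendrocyte markers and, of the neuron markers, Agrp, the agouti-related peptide, at 1.32 ± 0.20 (SE, edgeR Padj = 0.010), all higher with Cort. Of 7 neuron markers tested at 2 days 3 had P below 0.01, as had 1 of 11 microglia markers. Of all genes tested at 2 days, 1.49% had P below 0.01 and 0.065% had Padj below 0.1. With all 10 libraries none of these markers passed either threshold. At 4 weeks the sum of 8 arcuate neuron markers was lower with Cort, at 485 to 964 CPM against 972 to 1407 CPM in the kept libraries, and the groups overlapped over all 10. Npy, the neuropeptide Y gene, was the 1 neuron marker with Padj below 0.1 there, at -2.31 ± 0.41 (SE, edgeR Padj = 0.097), and at -1.34 ± 0.54 (SE, edgeR Padj = 0.991) with all 10. The neuron markers did not all fall, as 2 of the 7 tested at 4 weeks were higher with Cort, and their median was -0.11. P was below 0.01 for 1 higher and 1 lower marker, against 1.03% of all genes tested, and for none with all 10 libraries. The summed markers of endothelial cells, pericytes, leptomeningeal cells, tanycytes, ependymal cells and choroid plexus overlapped between treatments in both datasets, and 1 choroid plexus marker was at 0 throughout at 2 days and 2 at 4 weeks. The study itself reported Agrp as raised by Cort at 2 days and Npy as reduced at 4 weeks, after fasting and refeeding. The sum of neuron markers therefore cannot be read as neuron content alone. The part of other cells in the values of Serpina3n was not tested.

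Within the groups, the genes that varied most like Serpina3n were sought over the 14 kept libraries after the mean of each group was subtracted. Among 11015 other genes tested in both datasets the first 5 included Gkap1 (Pearson r = 0.945), Ghr (0.856), Serpina3m (0.852) and Depdc5 (0.839). Spearman's rho was 0.974, 0.521, 0.732 and 0.802 in the same order. They are the highest of many values and carry no P. Libraries of a dataset share a sequencing run and a scaling, and the points rest partly on Cort C06 and C01 at 2 days, without which r was 0.893 for Gkap1, 0.485 for Ghr and 0.632 for Serpina3m. Over all 20 libraries only Serpina3m stayed among the first 5, where it ranked first with r = 0.885, and r was 0.923 within the 2 day libraries and 0.885 within the 4 week libraries. Depdc5 fell to 0.111. Serpina3m shares the coding stretch shown above with Serpina3n, and how far shared reads add to this likeness was not tested.

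Gfap had r = 0.347 with Serpina3n over the 14 kept libraries, which ranked 1273rd of 11015. Over all 20 it had r = 0.583 and ranked 206th, and without 4 weeks C01 and 2 days C06 this r was 0.276. Cd44 was at 0.211, Cp at -0.171, S1pr3 at -0.310 and Osmr at -0.340 over the 14. None of the 5 was among the first 5 genes most like Serpina3n, over the 14 or over all 20.

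**Figure D5:**
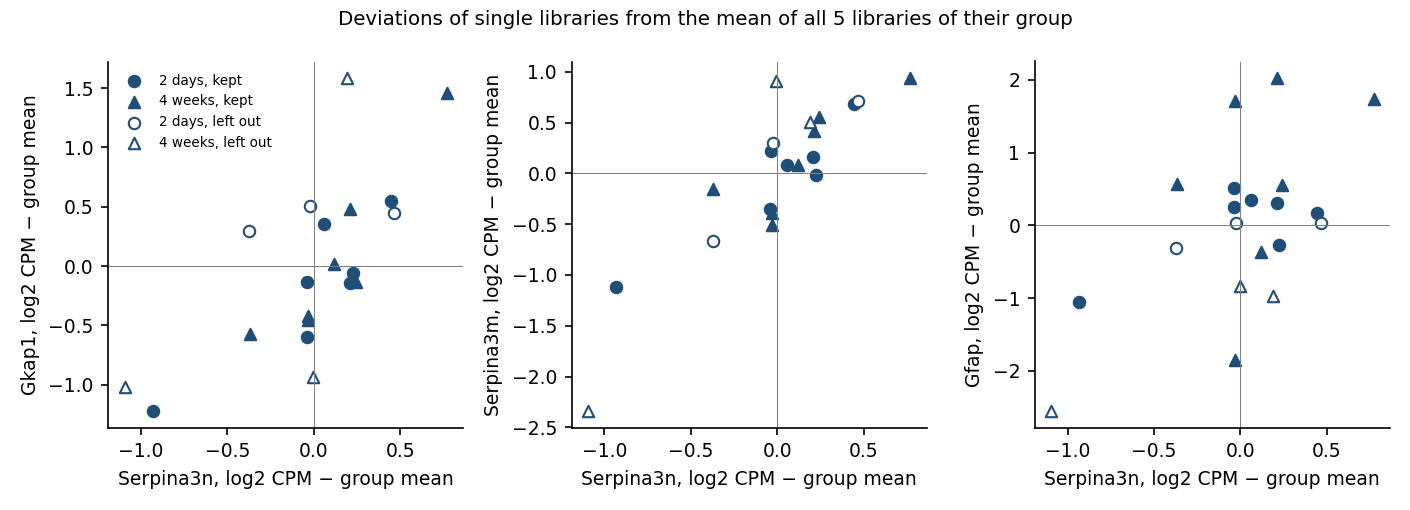
Deviation of each of 20 libraries from the mean of its group (log2 CPM) for Serpina3n (horizontal axes) and for Gkap1, Serpina3m and Gfap (vertical axes). Circles are 2 day and triangles 4 week libraries, and open symbols were left out by the study. Serpina3m follows Serpina3n over all 20 libraries (r = 0.885), Gkap1 less closely (r = 0.708), and Gfap spreads widely (r = 0.583).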

How the data were processed

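RNA of the ARC was amplified and sequenced as single reads of 50 bases. The authors mapped reads to GRCm38 with Rsubread and deposited raw counts per gene from featureCounts. The authors also deposited a signal table, the counts scaled by DESeq2's size factors, of the 7 libraries kept in each dataset, used here only to check headers, whose columns of fold changes and P values were not used. The annotation release and how strand and multiply mapped reads were handled are not given in the sources used here. Libraries were assigned to groups through their codes, and nothing ties a library to a named mouse, so P values measure the spread between these samples.

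Counts were tested per dataset with edgeR 4.0.16 (filterByExpr, TMM scaling, glmQLFit and glmQLFTest) in R 4.3.3, with Benjamini-Hochberg adjustment (Padj) over all genes tested and a threshold of 0.1. CPM used TMM factors over all 10 libraries, and log2 CPM a prior count of 2. Tested on simulated counts with 200 genes changed by 2 on the log2 scale, the fit found 78.0% of them at 2 days and 28.5% at 4 weeks, and 8.24% and 8.06% of calls were wrong. Alternatives were DESeq2 1.42.0, other scalings and filters, all 10 libraries and leaving out each library. The named genes were the 9 members, the 5 genes most like Serpina3n, of which 1 is not reported here, and in each pathway list and dataset every gene with Padj below 0.1 and the gene with the smallest P. Stat3, Fbln5, Osm, Il6, Serpina3g, Serpina3c, Agrp and Npy were named besides after their values were seen where this rule did not name them. Members and lists were chosen with earlier results of these data known.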

Additional observations from a re-analysis of the deposited data

Results flagged for a closer look

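Dixon's test was tried in 48 groups of 4 or 5 libraries, with the kept and all libraries counted as separate groups. It gave 10 flags, where chance alone flags about 1 in 20 groups of normally spread values. The flags fell on 7 distinct values of the 9 genes. At 2 days these were Osmr in vehicle C09 (8.807 CPM), Steap4 in the same library (5.682 CPM) and Timp1 in Cort C03 (3.081 CPM). At 4 weeks they were Cp in vehicle C05 (62.11 CPM), Lcn2 in Cort C08 (2.115 CPM), Osmr in Cort C10 (7.314 CPM) and Timp1 in Cort C10 (1.219 CPM). The last 3 stood apart with the 4 kept Cort libraries as well as with all 5. For Lcn2 and Timp1 every other Cort library at 4 weeks was at 0, so that the test was bound to mark them. No value of Serpina3n, Gfap, S1pr3 or Cd44 was marked by this test in any group.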

How the results depend on the processing

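The log2 fold change of Serpina3n stayed above 0 in all 13 alternatives of each dataset other than the header grouping below, between 1.17 and 1.62 at 2 days and between 0.76 and 1.19 at 4 weeks, where its edgeR or DESeq2 Padj stayed above 0.1. The number of members higher with Cort at 2 days, 6, was 5 to 6 when single libraries were left out, and the number with Padj below 0.1 at 4 weeks was 0 throughout. With the 2 day libraries grouped by the headers of the normalized table, an alternative added after seeing the data, 3 members were higher, no gene of the pathway lists (0) passed, and the log2 fold changes were -0.67 for Serpina3n, -0.07 for Fam107a and -0.08 for Glul. The number of pathway list genes with Padj below 0.1 at 2 days, 2, was 5 with DESeq2, 4 without a filter, 1 with all 10 libraries (Fkbp5, and neither Glul nor Fam107a) and 0 to 3 when single libraries were left out. At 4 weeks this number, 1, was 2 with DESeq2, 0 with upper quartile scaling and 0 to 1 when single libraries were left out. At 4 weeks S1pr3 was -0.09 with upper quartile scaling and -0.84 to 0.92 without single libraries, and Gfap -0.10 to 0.93, while Gfap at 2 days was -0.07 to 0.35. Of the 5 genes most like Serpina3n, 1 stayed among the first 5 over all 20 libraries. The cause of these changes was not tested. No paired analysis was possible because the count columns carry library codes that lead to a group and not to a replicate number. The depth of 1065776 to 5748223 counts per library left Lcn2, Steap4 and Timp1 at or near the floor.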
